A study of Mus musculus with 6 samples.

Results

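The 10 genes described here encode enzymes of glycolysis and 1 regulator of its flux: the hexokinases Hk1 and Hk2, the regulator Pfkfb3, the aldolase Aldoa, Gapdh, Pgk1, the enolases Eno1 and Eno2, the pyruvate kinase Pkm and the lactate dehydrogenase Ldha. They were taken as every gene probe on the array whose transcript accession belongs to 1 of these genes, which gave 20 of the array's 39429 probes. The 10 genes are a small share of the 20659 genes with a symbol. The rule used no expression value. Gapdh had 7 of the probes, Ldha 3, Hk1 and Pfkfb3 2 each, and the other 6 genes had 1.

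The cells were mouse podocytes, the kidney epithelial cells whose foot processes cover the capillaries of the glomerulus, kept as a line by a temperature-sensitive SV40 T antigen. They were grown at 33 °C and then differentiated for 10 days at 37 °C in medium with 1 g of glucose per litre. All cells carried a pGIPZ lentiviral short hairpin: shTug1 clone 2 and shTug1 clone 3, described by the submitters as independent clones, carried one against the long noncoding RNA Tug1, and shControl carried a scrambled one. Each of the 3 groups has 2 biological replicates, each on its own 1-colour array, for 6 arrays in all, so the arrays of a clone replicate that 1 line. The 4 arrays labelled shTug1 were on 1 slide and both shControl arrays on a second slide. In every comparison against shControl the effect of the hairpin and that of the slide cannot be told apart. Clone 3 and clone 2 can be compared within 1 slide.

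Glycolysis splits glucose into pyruvate in the cytosol. Hexokinases phosphorylate glucose, Pfkfb3 makes the fructose 2,6-bisphosphate that activates phosphofructokinase, aldolase splits the hexose, and Gapdh and Pgk1 carry out the oxidation and the first ATP-forming step. Enolase and pyruvate kinase complete the path, and lactate dehydrogenase converts pyruvate and lactate. Several of these genes, Pgk1, Ldha and Pfkfb3 among them, are known targets of hypoxia-inducible factor, whose response element has the core ACGTG. Gapdh is widely used as a reference transcript of constant level.

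The promoters of Pgk1, Ldha and Pfkfb3 are shown because these 3 genes share that known regulation while their probes moved in different directions here. Each window runs from 250 bases before to 50 bases after the annotated start on build GRCm38.p6, from RefSeq, and capitals mark ACGTG on either strand (CACGT where it lies on the other strand, and CACGTG where a match on each strand overlaps). Pgk1 lies at chrX:106186850-106187149 (plus strand), Ldha at chr7:46845554-46845853 (plus strand) and Pfkfb3 at chr2:11553880-11554179 (minus strand).
Pgk1: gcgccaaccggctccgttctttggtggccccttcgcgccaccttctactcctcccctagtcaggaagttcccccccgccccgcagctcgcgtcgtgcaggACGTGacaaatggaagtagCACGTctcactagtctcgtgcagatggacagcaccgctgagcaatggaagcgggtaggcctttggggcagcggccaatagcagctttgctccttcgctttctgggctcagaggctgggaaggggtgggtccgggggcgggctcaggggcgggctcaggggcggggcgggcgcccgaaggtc
Ldha: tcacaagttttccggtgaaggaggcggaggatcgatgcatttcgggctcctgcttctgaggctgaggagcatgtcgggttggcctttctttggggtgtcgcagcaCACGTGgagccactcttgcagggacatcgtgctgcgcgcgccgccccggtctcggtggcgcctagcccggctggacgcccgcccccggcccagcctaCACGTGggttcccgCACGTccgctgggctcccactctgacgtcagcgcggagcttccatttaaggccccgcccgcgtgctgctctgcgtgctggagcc
Pfkfb3: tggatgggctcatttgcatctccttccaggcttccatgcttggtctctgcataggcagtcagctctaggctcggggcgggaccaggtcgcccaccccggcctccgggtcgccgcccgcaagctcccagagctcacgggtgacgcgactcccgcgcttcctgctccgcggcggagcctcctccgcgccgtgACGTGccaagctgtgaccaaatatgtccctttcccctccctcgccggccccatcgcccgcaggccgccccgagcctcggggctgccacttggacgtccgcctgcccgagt
The windows shown held 2 matches for Pgk1, 5 for Ldha and 1 for Pfkfb3. Ldha and Pfkfb3 each have a window at a second annotated start, which held 0 matches for Ldha and 2 for Pfkfb3, so these counts depend on the start. Of the 18 windows annotated for the 10 genes, 10 (55.6%) held the core, and of all 32851 mouse windows of 300 bases, 19.6% did. At least 1 window of 8 genes held it, and no window of Eno1 or Eno2 did. The share of all genes with a match was not taken, and a gene with several windows has more chances of one. Windows of a gene can also overlap: the Aldoa windows starting at 126799205 and 126799129 hold the same match. A match to 5 letters is a description of the sequence and no evidence of binding.

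Values are log2 of the background-subtracted signal minus the array's own 75th percentile. That percentile was 1055 and 949.3 signal units on the clone 2 arrays, 569.2 and 831.6 on the clone 3 arrays, and 324.3 and 363.3 on the shControl arrays. The 99th percentile lay between 82941 and 96435 on the 4 arrays labelled shTug1, and at 93053 and 65859 on the shControl arrays. On this scale, a probe with the same raw signal everywhere comes out lower in the arrays labelled shTug1. The median log2 fold change of all 25545 tested probes, mean of the clones over shControl, was −0.57. Values after quantile normalization, which gives all arrays the same distribution, are printed beside these, and the median was then −0.21. The Tug1 probe that cleared background on every array was 0.16 higher in the arrays labelled shTug1 than in shControl (adjusted p = 0.654 by limma), and a dimmer Tug1 probe, well above background on 3 arrays, was 2.39 higher (adjusted p = 0.0306). By clone, the probe that cleared background on every array was at 0.81 in clone 2 (limma adjusted p = 0.0823) and −0.48 in clone 3 (0.329). The dimmer Tug1 probe was at 3.46 in clone 2 (0.0172) and 1.33 in clone 3 (0.256). No fall of Tug1 was called in either clone, so Tug1 does not bear out the labels. Every direction below holds for the arrays as labelled. Of 10 podocyte markers, 8 were well above background on all 6 arrays, as were 3 of 5 mesangial or stromal, 2 of 4 endothelial, 3 of 5 tubular and 2 of 3 immune markers on the array; Pdgfra, Des, Tek and Slc12a1 were so on none. Over the array, 19799 of 39429 probes were tested and well above background on all 6 arrays, counted by probe where the markers are counted by gene. The marker counts alone therefore do not identify a cell type. The part of such markers in the results was not tested. In bulk RNA, fewer cells of a type and less RNA per cell cannot be told apart.

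Of the 20 probes, 19 were tested and 18 were well above background on all 6 arrays. In the mean of the clones over shControl, 5 of the 19 probes were higher, 7 were lower and 7 did not pass (limma, Benjamini-Hochberg adjusted over all probes tested, threshold 0.05). Over all 25545 probes tested, 11.8% were higher and 27.6% lower. A fit restricted to probes well above background on every array held 18 of the members, and gave 5 higher and 7 lower. Over all 19799 probes of that fit, 1939 were higher and 7383 lower. Ldha A_55_P2141878, called higher before, was not among the 18. The other 4 of the 5 passed again, and Gapdh A_55_P2088912 joined them (limma adjusted p = 0.0302). The median log2 fold change of the 19 probes was −0.19, against −0.57 for all tested probes. The order of these medians turned with 1 probe per gene, where the median of the 10 genes was −1.10 against −0.64 for all. Without shControl replicate 1 the median of the 19 probes was 0.25 (−0.33 for all tested probes), and without shControl replicate 2 it was −0.64 (−0.84 for all). After quantile normalization 6 were higher, 2 lower and 11 did not pass, beside 13.3% and 14.4% of all probes, and the medians were 0.42 and −0.21. Of the 5 probes called higher, 3 were called again after quantile normalization, and of the 7 called lower, 2 were. The counts rest on single arrays: they moved with each array left out, and so did the counts over all tested probes. Under 75th percentile scaling, the median of the 19 probes without clone 3 replicate 1 was −0.24 (−0.60 for all tested probes). Without clone 3 replicate 2 it was −0.15 (−0.54). Without clone 2 replicate 1 it was −0.32 (−0.54), and without clone 2 replicate 2 it was −0.07 (−0.58).

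**Figure D1:**
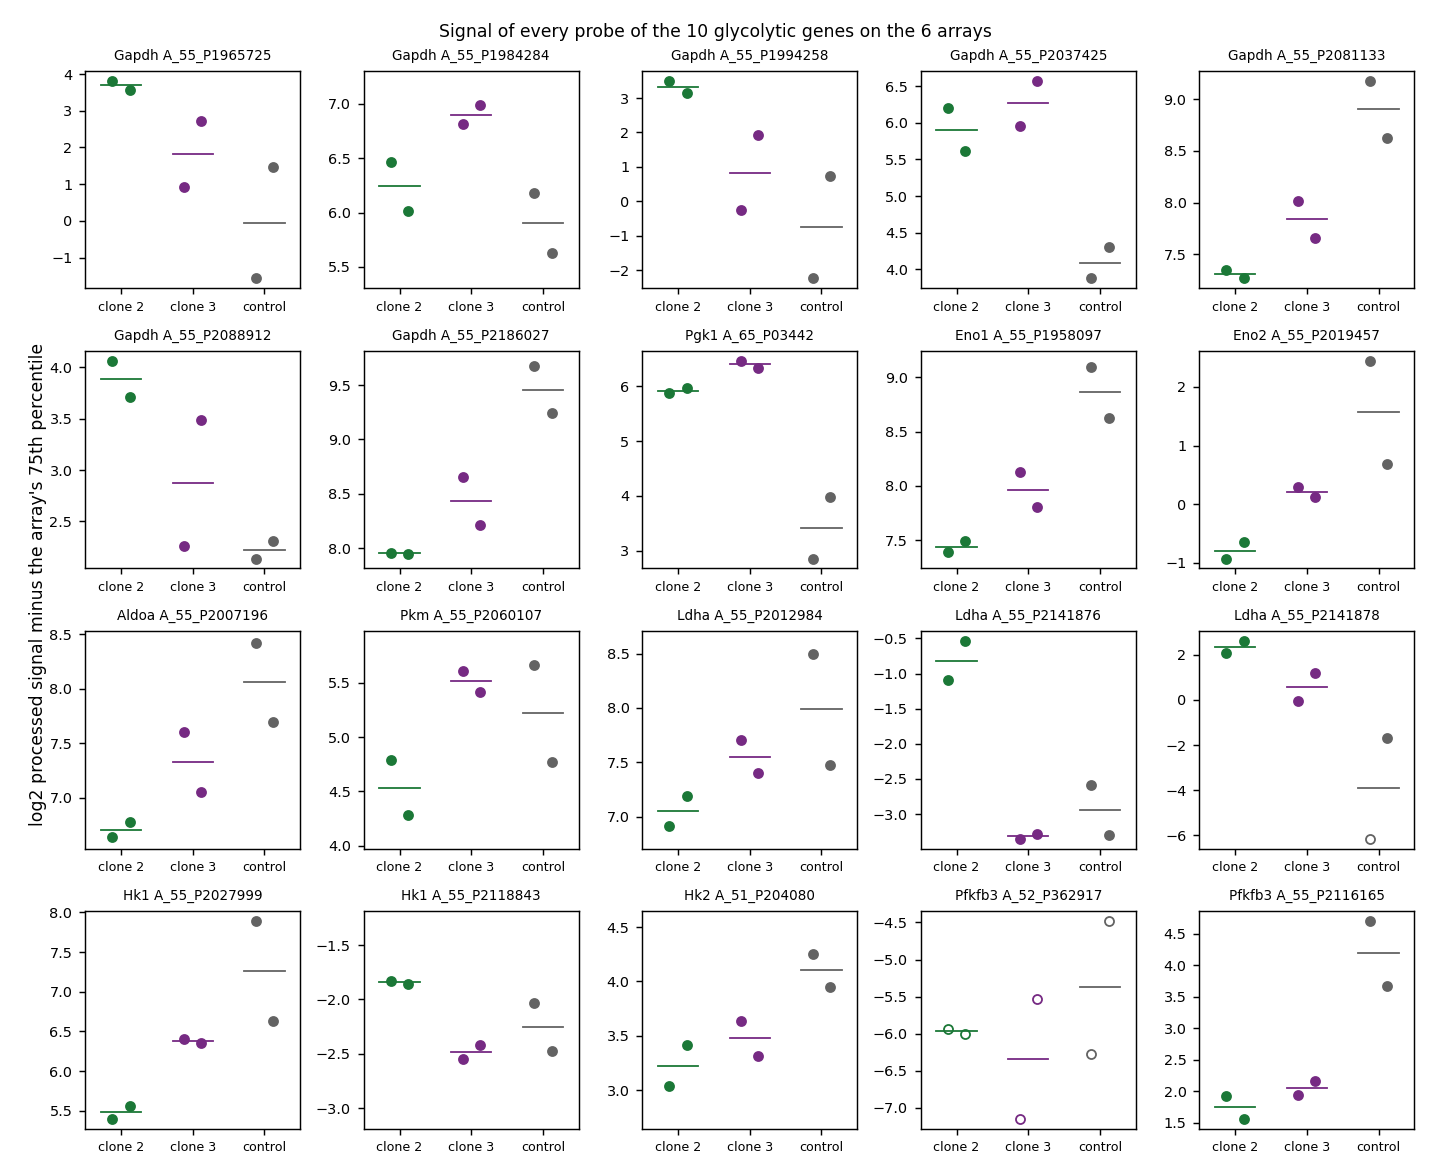
Each panel plots 1 of the 20 probes, with log2 processed signal minus the array's 75th percentile on the vertical axis and the 2 arrays of clone 2, clone 3 and shControl (control) as points from left to right, with the group mean as a line. Open points were not well above background, and vertical scales differ between panels. Pgk1 lies between 5.87 and 6.46 in the arrays labelled shTug1 and at 2.86 and 3.98 in shControl, whereas the brightest Gapdh probe, A_55_P2186027, lies below both shControl arrays.

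Hexokinases open the pathway. The brighter Hk1 probe, A_55_P2027999, read 5.40 and 5.56 in clone 2, 6.41 and 6.35 in clone 3, and 7.89 and 6.64 in shControl. All 4 arrays labelled shTug1 lay below both shControl arrays, a difference of −1.33 on the log2 scale (SE 0.40, limma adjusted p = 0.0343). After quantile normalization it was −0.36 (adjusted p = 0.261), and without shControl replicate 1 it was −0.71 (adjusted p = 0.0669), so the call ended under both. It ended as well when any single array labelled shTug1 was left out (adjusted p from 0.0511 to 0.106). The untransformed signals of the brighter Hk1 probe overlapped. They were 44418 and 44937 in clone 2, 48282 and 67904 in clone 3, and 77064 and 36146 in shControl. The dim Hk1 probe, A_55_P2118843, read −1.83 and −1.85 in clone 2, −2.55 and −2.42 in clone 3, and −2.04 and −2.48 in shControl. Clone 2 lay above the shControl arrays and clone 3 overlapped them, with a mean log2 fold change of 0.09 (SE 0.30, adjusted p = 0.804). Hk2, the inducible hexokinase of muscle and fat, read 3.04 and 3.42 in clone 2, 3.64 and 3.31 in clone 3, and 4.26 and 3.94 in shControl. The arrays labelled shTug1 lay below shControl on this scale, but its fold change of −0.75 (SE 0.31) did not pass (adjusted p = 0.0849) and was −0.06 after quantile normalization. The untransformed Hk2 signals had the opposite order, with 8652 and 10130 in clone 2, 7092 and 8272 in clone 3, and 6199 and 5595 in shControl. Without shControl replicate 2 it was −0.91 and passed (adjusted p = 0.037).

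Pfkfb3 fell under both scalings, with the lowest fold change of the members under 75th percentile scaling and a value tied with Eno2 after quantile normalization. Its measured probe, A_55_P2116165, read 1.93 and 1.56 in clone 2, 1.93 and 2.16 in clone 3, and 4.70 and 3.67 in shControl. The arrays labelled shTug1 were separated from shControl by more than 1 log2 unit, and the clones adjoined each other. The log2 fold change was −2.29 (SE 0.37, adjusted p = 0.0108) for the mean, −2.44 for clone 2 (adjusted p = 0.0113) and −2.14 for clone 3 (adjusted p = 0.0338). After quantile normalization the mean was −1.64 (adjusted p = 0.0177). The untransformed signals were 4019 and 2802 in clone 2, 2174 and 3725 in clone 3, and 8423 and 4622 in shControl, so the arrays labelled shTug1 were below both controls before any scaling as well. Leaving out clone 3 replicate 2 gave −2.34 with an adjusted p of 0.0502, and every other array left out kept the call. The second Pfkfb3 probe, A_52_P362917, stayed below the background call on all 6 arrays and was not tested.

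Aldoa, which splits fructose 1,6-bisphosphate, was read by 1 probe at 6.64 and 6.77 in clone 2, 7.61 and 7.05 in clone 3, and 8.42 and 7.70 in shControl. The arrays labelled shTug1 all lay below shControl, with a mean log2 difference of −1.04 (SE 0.35, adjusted p = 0.0468). The call was lost after quantile normalization, where the value was 0.09 (adjusted p = 0.726), and without shControl replicate 1, where it was −0.68 (adjusted p = 0.142). It was lost too without any single array labelled shTug1 (adjusted p from 0.0876 to 0.161). The untransformed signals of Aldoa were 105380 and 103751 in clone 2, 110884 and 110386 in clone 3, and 111165 and 75341 in shControl, which overlap.

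The 7 Gapdh probes carry the same transcript accession and did not move together: 3 passed as higher, 2 as lower and 2 did not pass. The brightest, A_55_P2186027, read 7.96 and 7.95 in clone 2, 8.65 and 8.21 in clone 3, and 9.68 and 9.24 in shControl. All 4 arrays labelled shTug1 lay below shControl (log2 fold change −1.27, SE 0.31, adjusted p = 0.0217). The next brightest, A_55_P2081133, followed it closely, at −1.33 (SE 0.31, adjusted p = 0.0202). After quantile normalization both calls were lost, with values of 0.01 (adjusted p = 0.977) for A_55_P2186027 and −0.17 (adjusted p = 0.566) for A_55_P2081133. The untransformed signals of A_55_P2186027 were 262416 and 234806 in clone 2, 228844 and 246738 in clone 3, and 265839 and 219533 in shControl, which overlap. Both calls also ended without clone 3 replicate 1 (adjusted p = 0.0617 and 0.0605, in the same order) or replicate 2 (0.0931 and 0.0866), and that of A_55_P2186027 ended without clone 2 replicate 1 (0.0523).

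The fainter Gapdh probes went the other way. A_55_P2037425 read 6.21 and 5.61 in clone 2, 5.96 and 6.58 in clone 3, and 3.88 and 4.30 in shControl. All 4 arrays labelled shTug1 lay above both controls, and the log2 fold change was 2.00 (SE 0.35, adjusted p = 0.0122), with 1.82 for clone 2 (adjusted p = 0.0165) and 2.18 for clone 3 (adjusted p = 0.0313). It was 2.78 after quantile normalization (adjusted p = 0.0169), and 1.84 without clone 3 replicate 2, where the adjusted p was 0.057. A_55_P1965725 read 3.82 and 3.57 in clone 2, 0.91 and 2.72 in clone 3, and −1.57 and 1.46 in shControl. A_55_P1994258 read 3.51 and 3.14 in clone 2, −0.27 and 1.92 in clone 3, and −2.24 and 0.74 in shControl. In both, clone 2 stood highest and shControl replicate 1 lowest, and clone 3 replicate 1 lay below shControl replicate 2. Their mean fold changes of 2.81 (SE 0.83, adjusted p = 0.0343) and 2.83 (SE 0.87, adjusted p = 0.038), in that order, shrank to 1.30 (adjusted p = 0.223) and 1.33 (adjusted p = 0.284) without shControl replicate 1. Both were 4.32 without shControl replicate 2, and neither passed after quantile normalization (3.16 with adjusted p = 0.0586, and 3.21 with adjusted p = 0.0638) or without either clone 3 array. Among the probes that did not pass, A_55_P2088912 was at 1.16 (SE 0.40, adjusted p = 0.0516) and A_55_P1984284 at 0.67 (SE 0.32, adjusted p = 0.128). Both passed after quantile normalization, at 1.70 (adjusted p = 0.0379) for A_55_P2088912 and 1.59 (adjusted p = 0.0198) for A_55_P1984284.

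Pgk1, the enzyme that forms the first ATP of the pathway, was the probe with the clearest change. It read 5.87 and 5.97 in clone 2, 6.46 and 6.33 in clone 3, and 2.86 and 3.98 in shControl. Replicates of each clone lay within 0.2 log2 units of each other, and all 4 arrays stood above both controls. The log2 fold change was 2.74 (SE 0.37, adjusted p = 0.0081) for the mean, a fold of 6.68, with 2.50 for clone 2 (adjusted p = 0.0108) and 2.98 for clone 3 (adjusted p = 0.0259). The untransformed signals were 61624 and 59579 in clone 2, 50258 and 67087 in clone 3, and 2355 and 5724 in shControl. After quantile normalization the log2 fold change was 3.43 (adjusted p = 0.0141), and with any single array left out it stayed between 2.18 and 3.30 and passed. Only 1 Pgk1 probe is on the array, so no second probe can be set against it.

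The enolases differed in how firmly their signal separated. Eno1, the enolase of most tissues, read 7.39 and 7.49 in clone 2, 8.13 and 7.81 in clone 3, and 9.09 and 8.63 in shControl. All 4 arrays labelled shTug1 lay below the controls, at −1.16 (SE 0.31, adjusted p = 0.0257), but the value was 0.03 after quantile normalization (adjusted p = 0.899). The Eno1 call also ended when any array other than shControl replicate 2 was left out (adjusted p from 0.0518 to 0.105). Eno2, the enolase first known from neurons, read −0.93 and −0.65 in clone 2, 0.29 and 0.13 in clone 3, and 2.45 and 0.69 in shControl. No array labelled shTug1 overlapped shControl on this scale, with both clone 2 arrays lowest and shControl replicate 1 highest. The untransformed Eno2 signals overlapped, with 555 and 605 in clone 2, 696 and 909 in clone 3, and 1770 and 588 in shControl. Those of Eno1 overlapped too, with 177137 and 171024 in clone 2, 159275 and 186160 in clone 3, and 176988 and 143857 in shControl. Eno2 fell by 1.86 on the log2 scale (SE 0.48, adjusted p = 0.0246), and the value was −1.64 after quantile normalization (adjusted p = 0.0398). Its size moved with the shControl arrays, to −0.98 without replicate 1 (adjusted p = 0.0461) and −2.74 without replicate 2 (adjusted p = 0.0031), and the call ended without clone 3 replicate 1 (adjusted p = 0.0667) or replicate 2 (adjusted p = 0.0843).

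Pkm, which forms pyruvate, read 4.79 and 4.29 in clone 2, 5.61 and 5.41 in clone 3, and 5.66 and 4.77 in shControl. The groups overlapped, and the fold change of −0.19 (SE 0.36) did not pass (adjusted p = 0.670), nor did 0.63 after quantile normalization (adjusted p = 0.0854). Without shControl replicate 1 its sign turned, to 0.25.

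Ldha was read by 3 probes with 3 different patterns. The brightest, A_55_P2012984, read 6.92 and 7.19 in clone 2, 7.70 and 7.40 in clone 3, and 8.50 and 7.48 in shControl. The groups overlapped at shControl replicate 2, and −0.69 (SE 0.37) did not pass (adjusted p = 0.163), while without shControl replicate 2 it was −1.20 and passed (adjusted p = 0.0133), and quantile normalization gave 0.42 (adjusted p = 0.182). A_55_P2141878 read 2.09 and 2.61 in clone 2, −0.04 and 1.20 in clone 3, and −6.15 and −1.68 in shControl, where 1 of the 2 arrays (replicate 2) measured it well above background. All 4 arrays labelled shTug1 lay above shControl. It met the filter on dim probes through the clone arrays alone, so its call among the 5 higher is partly set by the filter and its fold change is not an exact size. The fitted log2 fold change was 5.38 (SE 1.07, adjusted p = 0.0151), and it was 5.87 after quantile normalization (adjusted p = 0.0364). It turned on the dim control: it was 3.15 without shControl replicate 1 (adjusted p = 0.035), 7.61 without replicate 2, and 3.21 with normexp background correction (adjusted p = 0.001), and the call ended without clone 3 replicate 2 (5.07, adjusted p = 0.0583). The dimmest, A_55_P2141876, read −1.10 and −0.54 in clone 2, −3.35 and −3.28 in clone 3, and −2.59 and −3.30 in shControl. Clone 2 stood above all other arrays, and clone 3 overlapped shControl. Its mean of 0.88 (SE 0.34) did not pass (adjusted p = 0.0752), but it passed after quantile normalization (1.01, adjusted p = 0.0432).

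**Figure D2:**
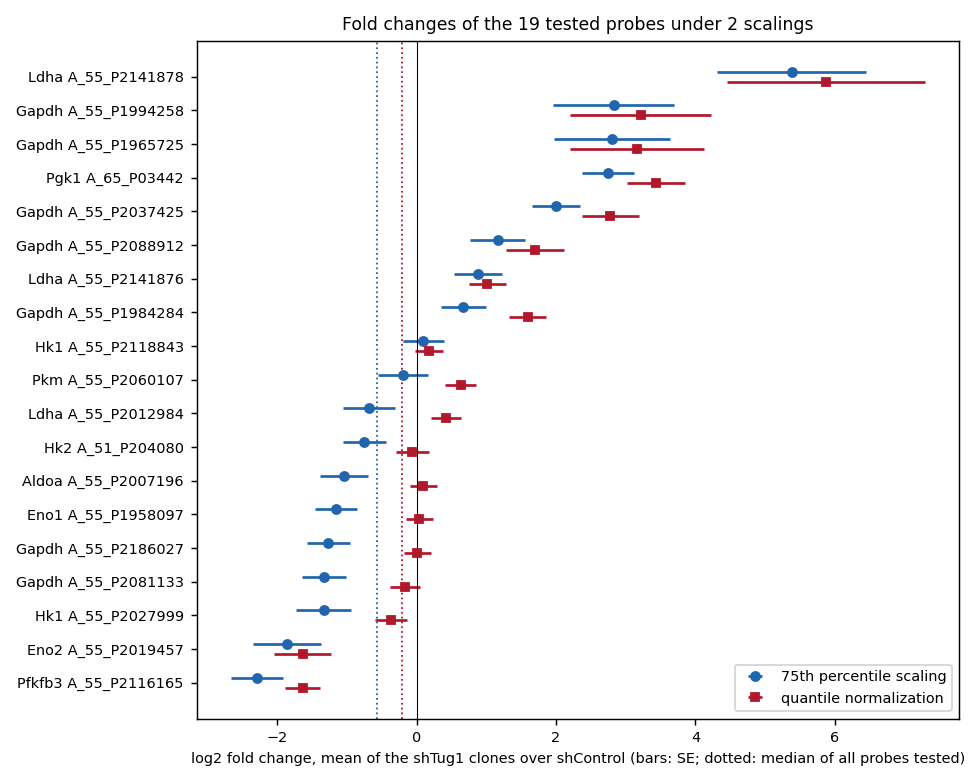
Log2 fold changes of the 19 tested probes, mean of the shTug1 clones over shControl, with 75th percentile scaling as circles and quantile normalization as squares, bars as SE and dotted lines as the median of all tested probes (−0.57 and −0.21). Pgk1 stands at 2.74 and 3.43 and Pfkfb3 at −2.29 and −1.64, while Eno1, Aldoa and the brightest Gapdh probe stand near 0 after quantile normalization.

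Counted by order alone, all 4 arrays labelled shTug1 lay above both controls for 3 of the 19 probes (beside 14% of all tested probes), below both for 8 (beside 40.3%) and overlapped for 8. After quantile normalization the counts were 7 above (20% of all probes), 2 below (30.3%) and 10 overlapping. The 7 above were Pgk1, Pkm, Gapdh A_55_P1984284, A_55_P2037425 and A_55_P2088912, and Ldha A_55_P2012984 and A_55_P2141878. Of these, Pgk1, Gapdh A_55_P2037425 and Ldha A_55_P2141878 were above under 75th percentile scaling too, and the others overlapped there. The 2 below were Eno2 and Pfkfb3.

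Differences between probes of 1 gene were also taken within each array, where a constant shift between arrays cancels. Quantile normalization, which also changes the shape of an array's distribution, does not cancel. For each of 3898 pairs in 3316 genes with 2 or more tested probes, the fainter probe minus the brightest probe of its gene was fitted by limma over the 3 groups. Of the 9 pairs from Gapdh, Ldha and Hk1, 8 had a positive change, that is, the fainter probe gained on the brightest in the arrays labelled shTug1, and 6 passed (adjusted over all pairs). Over the whole array the fainter probe was higher in 30% of pairs and lower in 5.7%, with a median change of 0.58. The median of the 9 pairs was 2.43. Pairs over the whole array thus leaned the same way. The centred gap, its median over all pairs on each array, was 0.33 and 0.31 on the clone 2 arrays, 0.04 and 0.12 on the clone 3 arrays, and −0.46 and −0.30 on the shControl arrays, and its part in the members' differences was not tested.

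For Gapdh, relative to A_55_P2186027, the change was 3.26 for A_55_P2037425 (SE 0.45, adjusted p = 0.0159), 2.43 for A_55_P2088912 (SE 0.54, adjusted p = 0.0300) and 1.93 for A_55_P1984284 (SE 0.28, adjusted p = 0.0169). The changes of 4.09 for A_55_P1994258 (adjusted p = 0.0561) and 4.07 for A_55_P1965725 (adjusted p = 0.0512) had SEs of 1.22 and 1.17 and did not pass. A_55_P2081133, the other bright probe, differed from A_55_P2186027 by −0.07 (SE 0.19, adjusted p = 0.804). The bright pair of Gapdh probes thus tracked each other, and the 5 fainter probes all had positive changes, of which 3 passed. For Ldha, relative to A_55_P2012984, the change was 6.07 for A_55_P2141878 (SE 1.60, adjusted p = 0.0424), whose size is not exact because 1 shControl array did not measure it, and 1.56 for A_55_P2141876 (SE 0.24, adjusted p = 0.0179). The fainter Hk1 probe gained 1.43 (SE 0.30, adjusted p = 0.0278). By clone, the fainter probe was higher in 8 of the 9 pairs for clone 2 (beside 30.9% of all pairs, with 5.16% lower) and in 2 for clone 3 (beside 8.11%, with 2% lower). In clone 3 minus clone 2, 1 of 9 passed, Ldha A_55_P2141876, where the fainter probe was lower (−3.00, adjusted p = 0.0478, beside 0.359% lower and 0.0257% higher over all pairs). In the mean of the clones over shControl, all calls among the 9 pairs ended without clone 2 replicate 1, clone 2 replicate 2 or clone 3 replicate 2. The share of all pairs in those fits is not given here. After quantile normalization 3 of 9 passed, and with the replicate number as a block 8 did. The probes' own sequences and their positions along the transcripts were not analysed here.

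**Figure D3:**
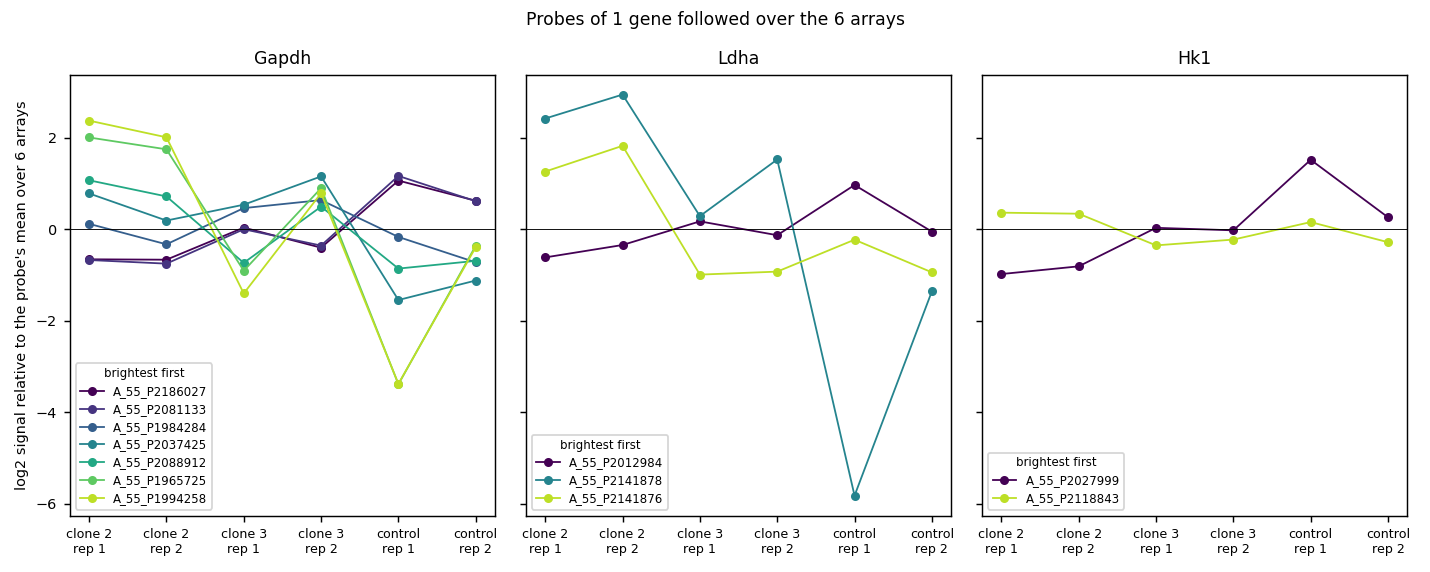
Log2 signal of each tested probe of Gapdh, Ldha and Hk1 relative to that probe's mean over the 6 arrays, with clone 2, clone 3 and shControl (control) arrays from left to right and probes coloured from the brightest (dark) to the dimmest (light). Lines join the values of 1 probe, and replicates have no order. The 2 darkest Gapdh lines are highest on the shControl arrays, the 3 lightest on the clone 2 arrays, and the lines of A_55_P1984284 and A_55_P2037425 on clone 3 replicate 2.

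**Figure D4:**
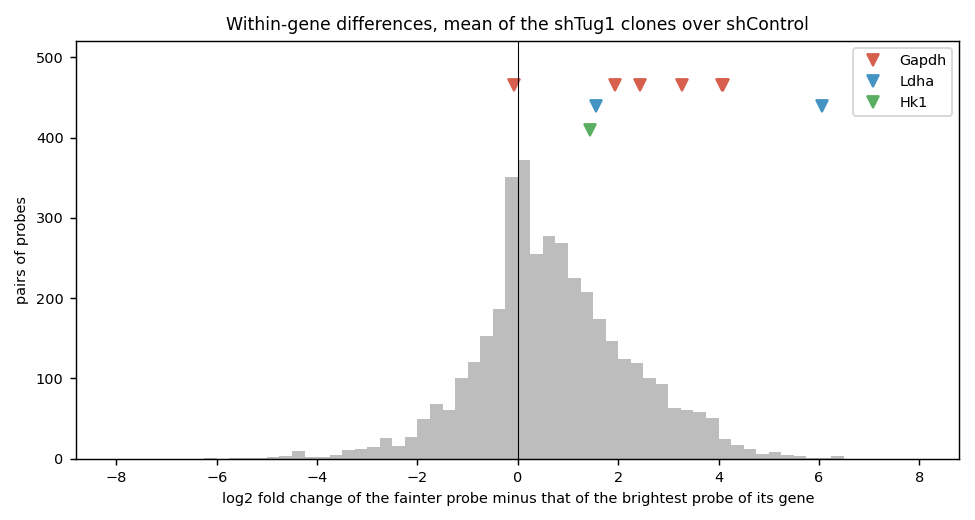
Histogram of the log2 fold change (mean of the shTug1 clones over shControl) of the fainter probe minus that of the brightest probe of its gene, for 3898 pairs, with the number of pairs on the vertical axis. Triangles mark the pairs of Gapdh, Ldha and Hk1 along the horizontal axis only, and 2 Gapdh triangles near 4.1 overlap. Of the 9 triangles 8 lie above 1, as do 1501 of all pairs, while 412 pairs lie below −1.

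Taken apart, the clones gave unequal numbers of calls against the same 2 shControl arrays, which both comparisons share. For clone 2, 7 of the 19 probes were higher and 7 lower (beside 12.4% and 30.9% of all probes), with a median of −0.68 against −0.72 for all. For clone 3, 2 were higher and 1 lower (beside 4.78% and 4.21%), with a median of −0.37 against −0.41. After quantile normalization, clone 2 had 8 higher and 2 lower (beside 12.5% and 15.1%), and clone 3 had 3 higher and 1 lower (beside 4.87% and 3.07%). The probes called for clone 3 were Pgk1, Gapdh A_55_P2037425 and Pfkfb3. These calls rested on both clone 3 arrays, as did every clone 3 call over all tested probes. The clone 3 median of the 19 probes was −0.34 without clone 3 replicate 1 (−0.45 for all) and −0.29 without replicate 2 (−0.37). Without shControl replicate 2 it was −0.73 (−0.67 for all). Among the probes called for clone 2 but not for clone 3, Gapdh A_55_P1994258 was 4.08 higher in clone 2 (adjusted p = 0.0200) with 1.58 in clone 3 (adjusted p = 0.288), and Eno2 was at −2.36 in clone 2 (adjusted p = 0.0184) with −1.36 in clone 3 (adjusted p = 0.130). Tested directly, and within 1 slide, clone 3 minus clone 2 gave 0 probes higher and 1 lower of 19 by limma (beside 0.384% and 1.48%). The 1 probe was Ldha A_55_P2141876, at −2.50 (SE 0.40, adjusted p = 0.0287). Gapdh A_55_P1994258 had the same difference, −2.50, with an adjusted p of 0.371. After quantile normalization 0 probes passed by limma in either direction (beside 0.114% higher and 0.45% lower). For Pgk1 the clones differed by 0.48 and for Pfkfb3 by 0.30, with SEs of 0.43 each.

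Across the 6 arrays the member probe with the largest rise that was well above background on every array was Gapdh A_55_P1994258, and the one with the largest fall was Pfkfb3 A_55_P2116165. Likeness was measured as the root mean square difference of centred log2 values over the 6 arrays, among 19799 probes well above background on all of them. The genes nearest to the Gapdh probe were Gm6981 (0.21), Eef1g, a subunit of translation elongation factor 1 (0.26), and Gm8709 (0.33). Those nearest to Pfkfb3 were the kinase Stk26 (0.12), Gm5901 (0.13) and Sun3 (0.17). Among the members themselves, the bright probes resembled each other most: Gapdh A_55_P2081133 and A_55_P2186027 differed by 0.06, and Eno1 differed from Gapdh A_55_P2186027 by 0.07. Pgk1 was nearest to Gapdh A_55_P2037425, at 0.50.

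The rest of the pathway was taken as 41 further genes of glucose uptake, glycolysis and its branches, chosen with earlier results of these data known and read by the brightest tested probe. All 41 are on the array and 32 were tested: 4 were higher, 8 lower and 20 did not pass (limma, adjusted over all probes, of which 11.8% were higher and 27.6% lower), with a median log2 fold change of −0.56. After quantile normalization 6 were higher, 3 lower and 23 did not pass (beside 13.3% and 14.4% of all probes), with a median of −0.13. The 3 largest fitted rises were the pyruvate dehydrogenase kinase Pdk1 (2.68, adjusted p = 0.0196), the phosphofructokinase Pfkp (2.65, adjusted p = 0.0150) and the phosphofructokinase Pfkl (1.96, adjusted p = 0.0116). Pdk1 and Pfkp were well above background on 1 of the 2 shControl arrays and met the filter through the clone arrays alone, so their sizes and their place in this order are not exact. A second Pfkp probe went the other way, at −1.23 (adjusted p = 0.0227). Pfkl read 1.32 and 0.56 in clone 2, 1.47 and 1.65 in clone 3, and −0.77 and −0.65 in shControl, with no overlap, and was at 2.02 after quantile normalization. The 3 largest falls were the D-lactate dehydrogenase Ldhd (−1.96, adjusted p = 0.0170), the kinase Pdk2 (−1.71, adjusted p = 0.0194) and the muscle enolase Eno3 (−1.71, adjusted p = 0.0324). Ldhd (−1.76) and Pdk2 (−1.35) passed after quantile normalization, and Eno3 (−0.85) did not. These counts moved with each array left out, and so did the counts over all tested probes.

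Some paralogs of the members at the same step passed as lower and others did not pass, where 27.6% of all tested probes were lower. Of the hexokinases, Hk3 was at 0.06. Aldoc, the brain aldolase, was at −0.76, and Pgk2, the testis form of phosphoglycerate kinase, was at −0.11, with values of −3.66 and −3.99 in clone 2, −3.48 and −3.82 in clone 3, and −3.11 and −4.14 in shControl. Thus Pgk2 overlapped between groups where Pgk1 was separated. Of the Pfkfb enzymes, Pfkfb1 was at −0.46, Pfkfb4 at −0.11 and Pfkfb2 at −1.49 (adjusted p = 0.133), the last with −0.02 in clone 2 and −2.95 in clone 3, where 1 of 2 arrays measured it. Clone 3 minus clone 2 did not pass for Pfkfb2 (adjusted p = 0.183). The heart-type lactate dehydrogenase Ldhb was lower at −1.46 (limma adjusted p = 0.0179). Eno3 at −1.71 (adjusted p = 0.0324) and Eno4 at −1.14 (adjusted p = 0.0329) were lower too. Of Ldhb, Eno3 and Eno4, none passed after quantile normalization. Tpi1, which interconverts the triose phosphates ahead of Gapdh, was at 0.22 by its brightest probe (adjusted p = 0.567) and at 3.16 by a fainter one (adjusted p = 0.0095).

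**Figure D5:**
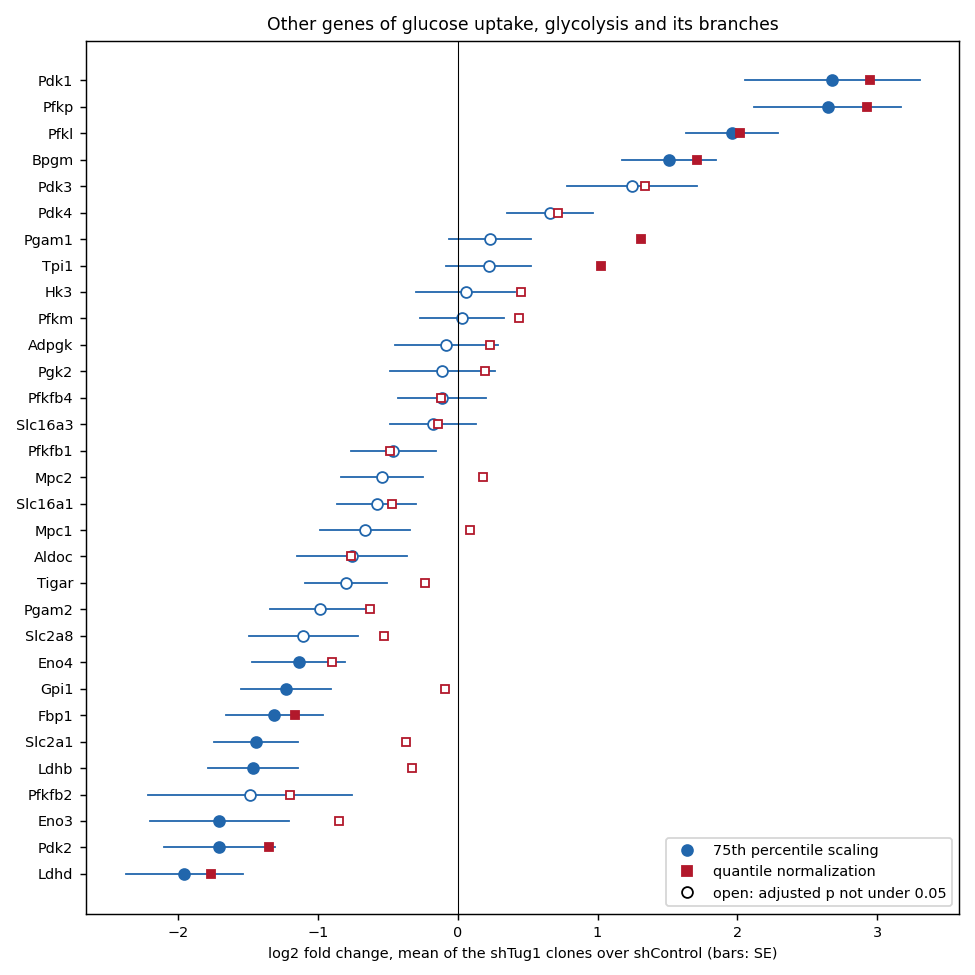
Log2 fold changes (mean of the shTug1 clones over shControl) of 31 of the 32 tested further genes, with 75th percentile scaling as circles with SE bars and quantile normalization as squares, and filled symbols for an adjusted p under 0.05. Pdk1, Pfkp, Pfkl and Bpgm lie right of 0 and filled under 75th percentile scaling, and Ldhd, Pdk2 and Fbp1 are the filled squares left of 0.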

How the data were processed

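RNA of 6 podocyte cultures was labelled with Cy3 and read on 1-colour Agilent mouse 4x44K arrays. The deposited scanner files hold an intensity per spot. The signal used had local background subtracted by the scanner software, per the file headers, and the submitters' processing notes name it as Agilent Feature Extraction, version 11.0.1.1. The deposited series value table holds log2 values of 19819 probes, with column medians of 9.01 and 8.98 for clone 2, 9.11 and 9.09 for clone 3, and 9.13 and 9.13 for shControl. Its columns followed their own arrays (r from 0.998 to 1.00, slopes from 0.928 to 1.05), which places it on an uncentred log2 scale; how it was normalized is not given in the sources.

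Groups came from the sample titles and slides from the file headers. Control spots and outlier-flagged spots were dropped, and repeated spots were averaged by probe. The filter asked for a signal well above background in both replicates of 1 group or more, which 25559 probes met; outlier flags removed 14 of them. Symbols were matched by unversioned accession to a RefSeq table: 27234 of 39429 probes matched, and 12195 did not. Values are log2 of the processed signal minus each array's 75th percentile. limma 3.58.1 in R 4.3.3 fitted 3 group means per probe (3 residual and 4.61 prior degrees of freedom), and its two-sided p-values were adjusted by Benjamini-Hochberg across every probe tested. The spread is that between 2 biological replicates per group, and the number of arrays limits the precision. The fit was tested on simulated data.

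Alternatives were quantile normalization, median centring, normexp background correction (offset 50), no filter or a stricter one on dim probes, the deposited value table, a trend in the prior spread, 1 probe per gene, the replicate number as a block, and each array left out in turn. The files hold no mean spot signal, so normexp used the median spot and background signals. The genes named were all 10 members, the 3 largest rises and falls among the other pathway genes, and the members' paralogs; Tpi1 and Bpgm were named after their values were seen. The members and lists were chosen with earlier results of these data known. 1 of the tested pathway genes is counted but not reported here by name. Figures were drawn with matplotlib 3.10.9.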

Additional observations from a re-analysis of the deposited data

Results flagged for a closer look

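The fall of the dimmest Ldha probe, A_55_P2141876, in clone 3 relative to clone 2 stood out because the clones differed in their change against the same control arrays, by a test of the difference itself. The log2 difference of clone 3 minus clone 2 was −2.50 (SE 0.40, limma adjusted p = 0.0287 over all probes tested), with −3.35 and −3.28 in clone 3 and −1.10 and −0.54 in clone 2. All 4 arrays lay on 1 slide. After quantile normalization the difference was −2.41 (adjusted p = 0.0561). The call ended without clone 2 replicate 2, clone 3 replicate 1 or clone 3 replicate 2. Without clone 3 replicate 1, every call of this comparison over all tested probes ended too. Relative to the brightest Ldha probe on the same array, the difference was −3.00 (SE 0.28, limma adjusted p = 0.0478). The brightest probe itself, A_55_P2012984, was at 0.50 (limma adjusted p = 0.481), and A_55_P2141878 was at −1.78 (0.416), so neither passed. The untransformed signals of A_55_P2141876 were 493 and 655 in clone 2, 56 and 85 in clone 3, and 54 and 37 in shControl.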

How the results depend on the processing

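With 2 arrays per group, leaving out any array labelled shTug1 changed calls, and Pgk1 was the 1 called probe whose direction and call held under every alternative run. For the mean of the clones over shControl, 5 of 19 probes were higher and 7 lower. The lower count was 2 after quantile normalization, beside 14.4% of all probes. It was 2 of 18 in the deposited value table, beside 3843 of all 19819. With 1 probe per gene, 1 of 10 was higher and 6 were lower, beside 2184 and 6532 of all 21474. For clone 2 the lower count of 7 became 2 after quantile normalization, beside 15.1% of all probes. It became 2 of 18 in the deposited table, beside 4084 of all 19819. With 1 probe per gene, 1 of 10 was higher and 6 were lower for clone 2, beside 2197 and 7255 of all 21474. For clone 3, normexp gave 4 higher and 4 lower of 19, beside 1797 and 6143 of all 25545 probes. With no filter on dim probes 0 of 20 were lower, beside 478 of all 39402. With 1 probe per gene, 1 of 10 was higher and 1 lower for clone 3, beside 934 and 1004 of all 21474. For clone 3 minus clone 2 the 1 lower probe became 0 after quantile normalization, with no filter, in the deposited table and with 1 probe per gene. In the deposited table no probe at all passed in this comparison. Of the 32 other pathway genes tested, 8 were lower, beside 27.6% of all probes, and 3 after quantile normalization, beside 14.4%. With normexp 16 of 32 were lower, beside 14541 of all 25545 probes. The deposited value table gave 5 lower of 28, beside 3843 of all 19819. The counts over all probes thus moved in the same directions. Within-gene pairs that passed went from 6 of 9 to 3 after quantile normalization and 3 of 8 in the deposited table. The share of all pairs that passed under these alternatives is not given here. With each array left out in turn, the counts against shControl moved for the members, the other pathway genes and the pairs. Those over all tested probes moved as well. The median of the 19 probes then ranged from −0.64 to 0.25 for the mean, and from −1.03 to −0.24 for clone 2. It ranged from −0.73 to −0.01 for clone 3 and from 0.35 to 0.54 for clone 3 minus clone 2.

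Signs turned for Gapdh A_55_P2186027 (0.0081 after quantile normalization, 0.0033 in the deposited table), Eno1 (0.035 and 0.042), Aldoa (0.094 and 0.10), Pkm (0.63 and 0.64, and −0.64 to 0.25 with each array left out) and Ldha A_55_P2012984 (0.42 and 0.42). They turned for Hk1 A_55_P2118843 with normexp (−0.22) and over the arrays left out (−0.13 to 0.31). The cause was not tested. The replicate numbers share no stated source. Differences between replicates correlated at −0.09 for clone 2 with clone 3, −0.03 for clone 2 with shControl and 0.12 for clone 3 with shControl, and the replicate number as a block left all 19 calls of the mean comparison as they were, with 5 higher and 7 lower, while 8 of the 9 pairs passed against 6 without it. Where a probe was dim, as Ldha A_55_P2141878 was on 1 shControl array, its fold change depends on the background correction. No spot was saturated.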
